A study of Rattus norvegicus with 6 samples.

Results

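The genes described here serve the release of synaptic vesicles and the recovery of their membrane. They are Vamp1, Vamp2, Snap25, Stx1a, Syt1, Amph, Dnm1 and Bin1, found by gene symbol in the annotation of the array's platform, with the brightest probe set taken where a gene had more than 1, and they are 8 of the 18166 genes measured. The set was chosen by measured values of these same arrays, the lower signals of Vamp1 and Amph after knockdown of Ncoa3, so the difference between the groups in these 8 genes is given as a description and was not tested. The data are 6 Affymetrix expression arrays of primary hippocampal neurons taken from rat embryos at day 18, all cultured with 10 µM 5-fluorodeoxyuridine, which stops dividing cells. The Ncoa3 shRNA group received, on day 4 in culture, adeno-associated virus (1800000 infectious units per ml) expressing a short hairpin RNA against Ncoa3, a coactivator that nuclear receptors recruit to transcribe their targets. The control shRNA group received the same amount of virus expressing a control hairpin. RNA of both groups was taken on day 14 in culture, with 3 arrays per group, 1 from each of 3 numbered experiments. The sources used here name neither the promoter that drives the hairpins nor a second Ncoa3 hairpin.

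Neurons release transmitter when a vesicle fuses with the cell membrane. The vesicle SNARE protein synaptobrevin (Vamp1 or Vamp2) zips together with syntaxin (Stx1a) and SNAP-25 (Snap25) on the cell membrane, and synaptotagmin (Syt1), the calcium sensor on the vesicle, triggers fusion. The membrane is then retrieved by endocytosis, in which the BAR-domain proteins amphiphysin (Amph) and Bin1, also called amphiphysin 2, bind curved membrane and recruit dynamin (Dnm1), a GTPase that cuts the new vesicle free. Vamp1 and Vamp2 are paralogs, as are Amph and Bin1.

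Vamp1 and Amph, for whose fall the set was chosen, were lower with Ncoa3 shRNA without overlap of the groups under every scaling used. None of the other genes among the 8 was, the paralogs Vamp2 and Bin1 included, although Bin1 was lower without overlap in the deposited values. The promoters of these paralog pairs are shown as a description. Each sequence is the 250 bases before the start site, from RefSeq (build GRCr8), read 5′ to 3′ on the gene's strand. They lie at chr4:159698644-159698893 on the plus strand for Vamp1, chr10:54292539-54292788 on the plus strand for Vamp2, chr17:50678502-50678751 on the minus strand for Amph and chr18:24283701-24283950 on the plus strand for Bin1. The start site used is not always the outer end of the annotated gene. The Vamp1 sequence ends just before its gene (from 159698894). Those of Vamp2 (gene from 54292423) and Bin1 (gene from 24282840) lie inside the gene, and that of Amph (gene up to 50678583) lies partly inside. The sequences are thus not alike in position. Capitals mark the GC box (GGGCGG, or CCGCCC on the other strand) and the cAMP response element (TGACGTCA, which reads the same on both strands).
Vamp1: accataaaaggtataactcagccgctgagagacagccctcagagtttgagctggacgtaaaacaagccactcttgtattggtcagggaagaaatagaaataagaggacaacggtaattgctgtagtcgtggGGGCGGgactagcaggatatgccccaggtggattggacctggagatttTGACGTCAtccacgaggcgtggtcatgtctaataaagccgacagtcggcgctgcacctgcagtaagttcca
Vamp2: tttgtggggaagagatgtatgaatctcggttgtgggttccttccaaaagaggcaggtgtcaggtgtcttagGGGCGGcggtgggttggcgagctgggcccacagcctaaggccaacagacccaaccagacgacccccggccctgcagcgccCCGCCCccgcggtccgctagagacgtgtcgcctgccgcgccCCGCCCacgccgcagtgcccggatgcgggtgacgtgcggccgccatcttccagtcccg
Amph: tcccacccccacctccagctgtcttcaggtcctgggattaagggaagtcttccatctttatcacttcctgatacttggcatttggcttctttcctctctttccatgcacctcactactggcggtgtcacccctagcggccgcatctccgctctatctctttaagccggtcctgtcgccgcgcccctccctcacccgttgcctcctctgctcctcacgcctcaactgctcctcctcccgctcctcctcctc
Bin1: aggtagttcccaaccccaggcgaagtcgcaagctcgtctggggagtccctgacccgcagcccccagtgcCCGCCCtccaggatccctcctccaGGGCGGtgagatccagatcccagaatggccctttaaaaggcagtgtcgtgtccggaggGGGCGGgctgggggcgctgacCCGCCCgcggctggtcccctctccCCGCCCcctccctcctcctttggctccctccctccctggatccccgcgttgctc

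The motif that nuclear receptors bind as a half-site (AGGTCA, or TGACCT on the other strand) was found in 0 of the 7 matched promoters of these genes, and in 14.1% of the 33469 promoters of the same length in the RefSeq table. Snap25 was not matched. The cAMP response element was found in 1 of the 7, that of Vamp1, from 71 to 64 bases before the start site, and in 1.59% of all promoters. GC boxes were found in 5 of the 7 (Vamp1, Vamp2, Stx1a, Syt1 and Bin1) and in 30.5% of all promoters. The promoters of Amph and Dnm1 held none of the 3 motifs. The GC content was 58.8% for Amph, 64.4% for Dnm1 and 50.4% for Vamp1. It was 68% for Vamp2, 69.6% for Bin1, 68.4% for Stx1a and 66% for Syt1. The cAMP response element and the GC box were added to the search after the data were seen, and a match is a string of letters and not a known binding site.

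Ncoa3 itself was lower with Ncoa3 shRNA in all 3 experiments, at 7.60, 7.60 and 7.45, against 8.63, 8.72 and 8.22 in the control shRNA arrays (quantile-normalized log2 signal), 1.96-fold lower (limma's adjusted p = 0.00747). The adjusted p was 0.134 without experiment 1 and 0.123 without experiment 2, with differences of -0.92 and -0.88. As deposited, the arrays' medians averaged 6.86 with Ncoa3 shRNA and 7.15 with control shRNA, a difference of -0.28, and the median difference over all genes was -0.25. That difference depended on signal, at -0.29 in the dimmest and -0.14 in the brightest of 10 bins of genes, and 7 of the 8 genes described here lie in the brightest bin. The values are therefore given after all 6 arrays were put on 1 distribution (quantile normalization), unless called deposited. The highest deposited value was 14.00 on each Ncoa3 shRNA array and 14.05 on each control shRNA array, and 19.8% and 19.5% of probe sets had the same value on all 3 arrays of those groups. The sources used here do not say whether the groups were summarised together. If they were not, group and summarisation cannot be told apart, and for a gene whose deposited values are the same on several arrays the replicate spread is not a measure of variation between cultures. The 5 measured neuronal marker genes that are not among the 8 (Rbfox3, Map2, Tubb3, Nefl and Nefm) averaged 11.96 to 12.03 on the Ncoa3 shRNA arrays, just below the 12.03 to 12.09 on the control shRNA arrays. Of them 0 passed limma's test of group (1 at an unadjusted p under 0.05), where 19.5% of all genes passed. Rbfox3, at -0.15, passed in the fit blocked by experiment (adjusted p = 0.0206).

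Vamp1, the synaptobrevin isoform found in motor and some other fast-firing neurons, differed the most of the 8 genes. Its signal on probe set 17787285 was 10.01, 10.09 and 10.36 in experiments 1 to 3 with Ncoa3 shRNA, against 10.62, 10.83 and 11.06 with control shRNA. The groups did not overlap, and experiment 3 was the highest of its group in both. The means were 10.15 ± 0.186 with Ncoa3 shRNA and 10.84 ± 0.221 with control shRNA (SD, n = 3 each), a difference of -0.69, or 1.61-fold lower. By experiment the difference was -0.62, -0.74 and -0.70. Of the 9083 genes brighter than the median gene, 22 had a lower difference than Vamp1. In the deposited values Vamp1 stood at 9.93, 9.99 and 10.20 with Ncoa3 shRNA, against 10.75, 10.97 and 11.11 with control shRNA, a difference of -0.90. With each array centred on its median in place of quantile normalization the difference was -0.62, so its direction and its lack of overlap did not hang on the scaling.

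**Figure D1:**
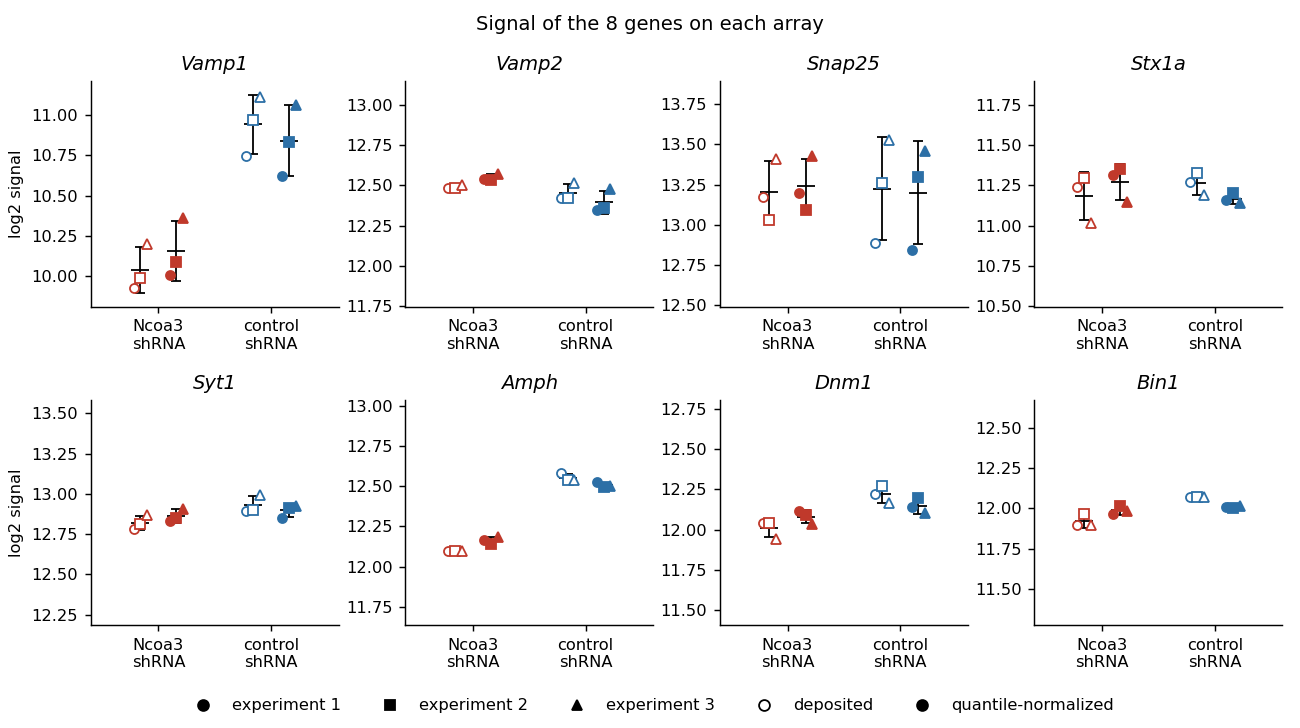
Log2 signal (vertical axis) of each of the 8 genes on the Ncoa3 shRNA arrays (left, red) and the control shRNA arrays (right, blue), with open symbols for the deposited and filled symbols for the quantile-normalized values, a symbol shape for each experiment and the mean ± SD in black. All panels span at least 1.4 log2 units, and the groups stand clearly apart for Vamp1 (10.01 to 10.36 against 10.62 to 11.06) and Amph.

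Vamp2, the main synaptobrevin of forebrain synapses, was not lower. Its quantile-normalized signal was 12.54, 12.53 and 12.57 with Ncoa3 shRNA, against 12.35, 12.36 and 12.48 with control shRNA. The groups did not overlap on this scale, with Ncoa3 shRNA higher by 0.15 (1.11-fold), nor with array medians centred, where it was higher by 0.32 (1.25-fold). They overlapped in the deposited values, at 12.49, 12.49 and 12.50 with Ncoa3 shRNA against 12.42, 12.42 and 12.52 with control shRNA, where the difference was 0.04 and was below 0 in experiment 3 (-0.01). Experiments 1 and 2 had the same deposited value within each group.

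Snap25 and Stx1a, the SNAREs of the cell membrane, overlapped between the groups. Snap25 stood at 13.20, 13.09 and 13.43 with Ncoa3 shRNA, against 12.84, 13.30 and 13.46 with control shRNA. The experiments disagreed in direction on this scale, with differences of 0.35, -0.21 and -0.03 and a mean difference of 0.04 that is smaller than either group's SD (0.171 with Ncoa3 shRNA and 0.321 with control shRNA). With array medians centred Snap25 was higher in all 3 experiments, by 0.58, 0.04 and 0.16 with a mean of 0.26, and the groups overlapped. Over the 9 fits that left out an array or an experiment, its quantile-normalized difference was lowest without the control shRNA array of experiment 1 (-0.15) and highest without experiment 2 (0.17).

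Stx1a stood at 11.31, 11.35 and 11.15 with Ncoa3 shRNA, against 11.16, 11.21 and 11.14 with control shRNA, a difference of 0.10. As deposited the difference was -0.08, so its sign hung on the scaling. Stx1a was the only one of the 8 genes with more than 1 probe set, and its dimmer probe set (17679252) gave -0.03 after quantile normalization and -0.23 in the deposited values. The array thus gives no settled direction for Stx1a.

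Syt1, the calcium sensor, stood at 12.83, 12.85 and 12.91 with Ncoa3 shRNA, against 12.85, 12.91 and 12.93 with control shRNA. The groups overlapped and the difference was -0.03, with -0.02, -0.07 and -0.02 in the 3 experiments. As deposited the groups did not overlap and the difference was -0.11, while centring on array medians turned it to 0.17.

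Amph, the amphiphysin gene, was lower by less than Vamp1 but with a smaller spread. Its quantile-normalized signal on probe set 17719703 was 12.17, 12.14 and 12.18 with Ncoa3 shRNA, against 12.52, 12.49 and 12.50 with control shRNA. The groups did not overlap, and the difference was -0.34, or 1.27-fold lower, with -0.36, -0.35 and -0.32 in experiments 1 to 3. The deposited value of Amph was 12.10 on all 3 Ncoa3 shRNA arrays, against 12.58, 12.54 and 12.54 with control shRNA, a difference of -0.46. The spread of the Ncoa3 shRNA arrays after quantile normalization (SD 0.0221) therefore comes from the normalization alone and does not measure variation between cultures. Of the 9083 genes brighter than the median gene, 487 had a lower difference than Amph. With array medians centred the difference was -0.18, smaller than after quantile normalization, and the groups still did not overlap.

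Bin1, the paralog of Amph, stood at 11.96, 12.01 and 11.98 with Ncoa3 shRNA, against 12.01, 12.00 and 12.01 with control shRNA. The groups overlapped and the difference was -0.02. Its deposited value was 12.07 on all 3 control shRNA arrays, against 11.90, 11.97 and 11.90 with Ncoa3 shRNA, a difference of -0.15 that is close to the median of -0.14 for genes of its brightness.

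Dnm1, the neuronal dynamin, stood at 12.11, 12.09 and 12.03 with Ncoa3 shRNA, against 12.14, 12.19 and 12.10 with control shRNA. The groups overlapped, by the Ncoa3 shRNA array of experiment 1, and the difference was -0.07. Before normalization the groups did not overlap and the difference was -0.21. Centred on array medians, Dnm1 stood at 0.07 and Bin1 at 0.13, so neither has a direction that holds under every scaling.

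**Figure D2:**
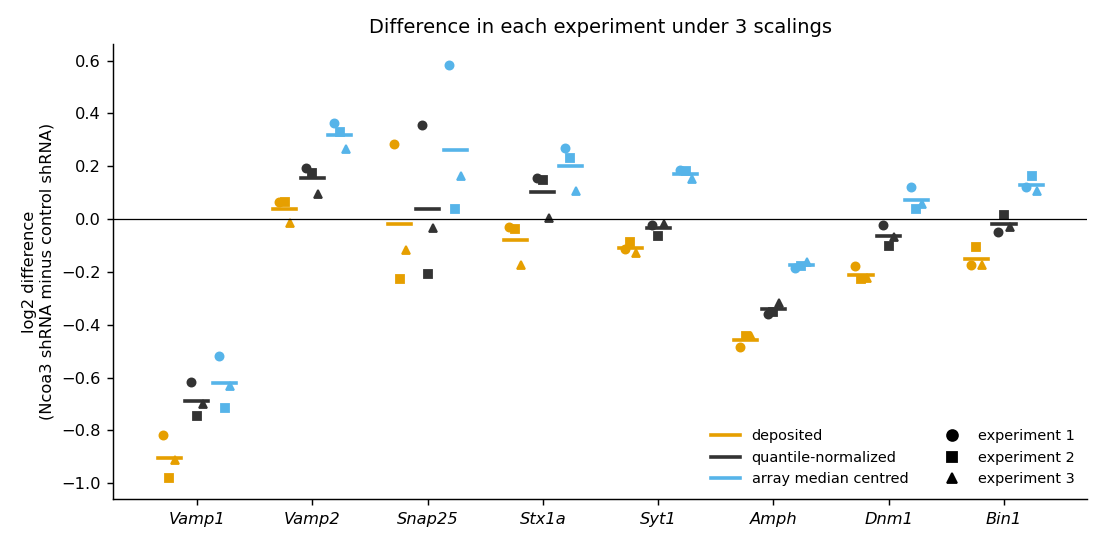
Log2 difference (Ncoa3 shRNA minus control shRNA, vertical axis) of the 8 genes in each experiment (symbols) with the mean (bar), for the deposited values (orange), the quantile-normalized values (black) and the values centred on array medians (blue). Vamp1 (-0.90, -0.69 and -0.62) and Amph (-0.46, -0.34 and -0.18) lie below 0 under all 3 scalings, and Snap25, Stx1a, Syt1, Dnm1 and Bin1 change sign between them.

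Over the set, 2 of the 8 genes were lower without overlap between the groups (Vamp1 and Amph) and 1 was higher without overlap (Vamp2), where 19% of all genes were lower and 21.5% higher without overlap. In the deposited values 5 of the 8 were lower and 0 higher without overlap, where 55.6% and 5.36% of all genes were. The median difference of the 8 genes was -0.03 after quantile normalization, where that of all genes was 0.01, and -0.13 in the deposited values, where that of all genes was -0.25. With array medians centred it was 0.15, where that of all genes was 0.03, with 6 of the 8 genes higher and 2 lower, and 2 higher and 2 lower without overlap. Since the set was chosen for the fall of Vamp1 and Amph, nothing is read from these counts. Against the 500 genes nearest in deposited signal, a measure added after the data were seen, Amph stood at -0.34 and Bin1 at -0.02.

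**Figure D3:**
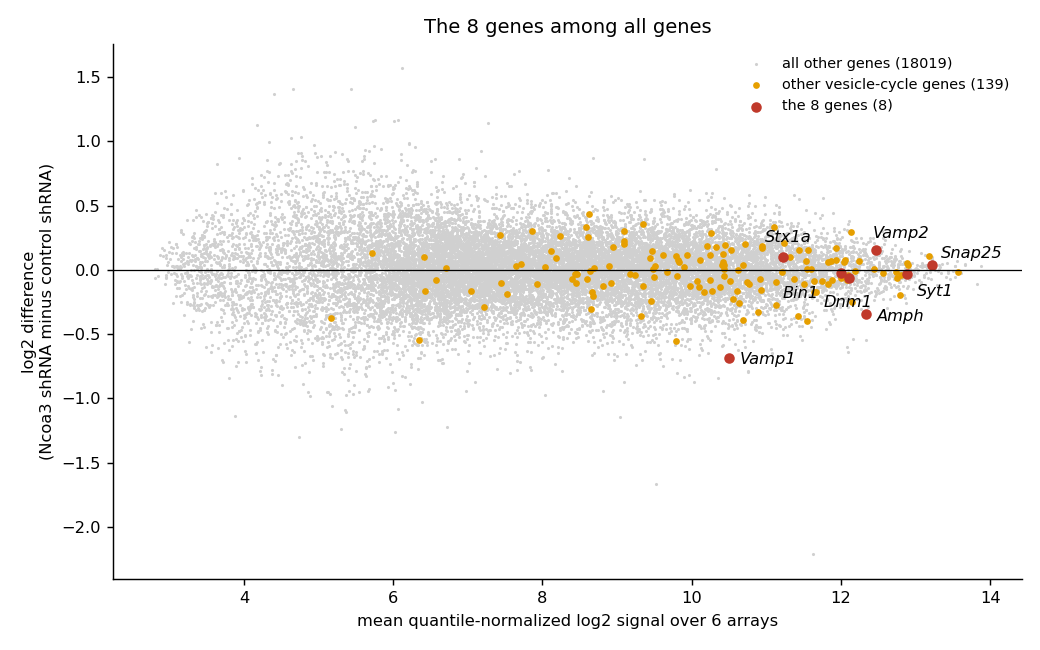
Log2 difference (Ncoa3 shRNA minus control shRNA, vertical axis) against the mean quantile-normalized log2 signal over the 6 arrays (horizontal axis) of 18166 genes, with the 8 genes in red and 139 other vesicle-cycle genes in orange. Vamp1 (-0.69) lies at the lower edge of genes of its brightness, and the other 7 genes lie nearer to 0 (Amph at -0.34).

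The groups' differences in other cell types' markers stood as follows beside those of Vamp1 and Amph, and their part in the result was not tested. In bulk RNA, fewer cells of a type and less RNA per cell cannot be told apart. By limma's test 10.5% of all genes were higher and 9.04% lower, and the few genes of each marker list are to be read beside these shares. Of 7 measured markers of GABAergic neurons 1 was higher and 2 were lower by limma's test. The mean of the list was 10.53 to 10.58 with Ncoa3 shRNA and 10.54 to 10.62 with control shRNA. Pvalb, the marker of parvalbumin interneurons, differed by -0.52 (adjusted p = 0.00372), Gad2, a GABA-synthesising enzyme, by -0.42 (0.0349) and Slc32a1, the vesicular GABA transporter, by 0.50 (0.0122). Pvalb had the same deposited value on all 3 Ncoa3 shRNA arrays. It was dim, with means of 5.88 to 5.98 over the experiments, where the median gene stood at 7.89. Of 4 markers of glutamatergic neurons and 6 of astrocytes 0 passed limma's test (0 and 0 at an unadjusted p under 0.05), although 1 astrocyte marker passed as lower in the blocked fit. Of 6 microglial markers 2 were higher, and the list averaged 6.40 to 6.68 with Ncoa3 shRNA and 6.20 to 6.26 with control shRNA, while these ranges overlapped in the deposited values (6.21 to 6.63 and 6.31 to 6.49). The microglial markers were all dimmer than the median gene, and their differences ran from -0.07 to 0.99 with a median of 0.14. Of 6 markers of the oligodendrocyte lineage 1 was higher and 2 were lower, and of 5 of endothelium and fibroblasts 1 was higher. In the blocked fit 3 microglial markers were higher, 2 of the oligodendrocyte lineage were higher and 2 lower, and 2 of endothelium and fibroblasts were higher and 2 lower. Of all genes 20.8% were higher and 18.6% lower in that fit. The lowest deposited value of any probe set was 2.29, so no marker could be listed at 0.

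The experiment a culture came from was not used in choosing the 8 genes, and its effect was tested in limma as an F-test with the group in the model. Vamp1 was the only one of the 8 to pass, where 18.8% of all genes passed. Its mean over both arrays was 10.32, 10.46 and 10.71 in experiments 1, 2 and 3 (adjusted p = 0.0484), and the array of experiment 3 was the highest of both groups. This call is weak, because it was lost in the deposited values (adjusted p = 0.146), with array medians centred (0.156) and in each of the 9 fits that left out an array or an experiment (0.0708 to 0.816). In 7 of those 9 fits 0 genes of the whole array passed (1323 to 7394 at an unadjusted p under 0.05 over the 9 fits). The other 7 genes did not pass (adjusted p from 0.189 for Syt1 to 0.882 for Bin1). Snap25 had as wide a range of means over the experiments, from 13.02 in experiment 1 to 13.44 in experiment 3, with an adjusted p of 0.222. The ranges of Amph (0.03) and Bin1 (0.02) rest on deposited values that are the same on all 3 arrays of a group.

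Markers of astrocytes varied between experiments in the same test. All 6 measured markers (Gfap, Aqp4, Slc1a2, Slc1a3, S100b and Gja1) passed (adjusted p from 0.0393 to 0.0484), each highest in experiment 3, and their mean was 9.75, 9.92 and 10.30 in experiments 1 to 3. On the deposited values 0 of the 6 passed (adjusted p from 0.0862 for S100b to 0.149 for Gfap). Of the 7 GABAergic markers 0 passed in the main test, and the list mean was 10.60, 10.54 and 10.57. Other lists had members that passed, with 3 of 5 for endothelium and fibroblasts (Cldn5, Col1a1 and Dcn), 2 of 6 for the oligodendrocyte lineage (Olig2 and Pdgfra), 1 of 6 for microglia (Csf1r) and 1 of 4 for glutamatergic neurons (Tbr1). Whether any of these markers bear on the level of Vamp1 in experiment 3 was not tested.

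**Figure D4:**
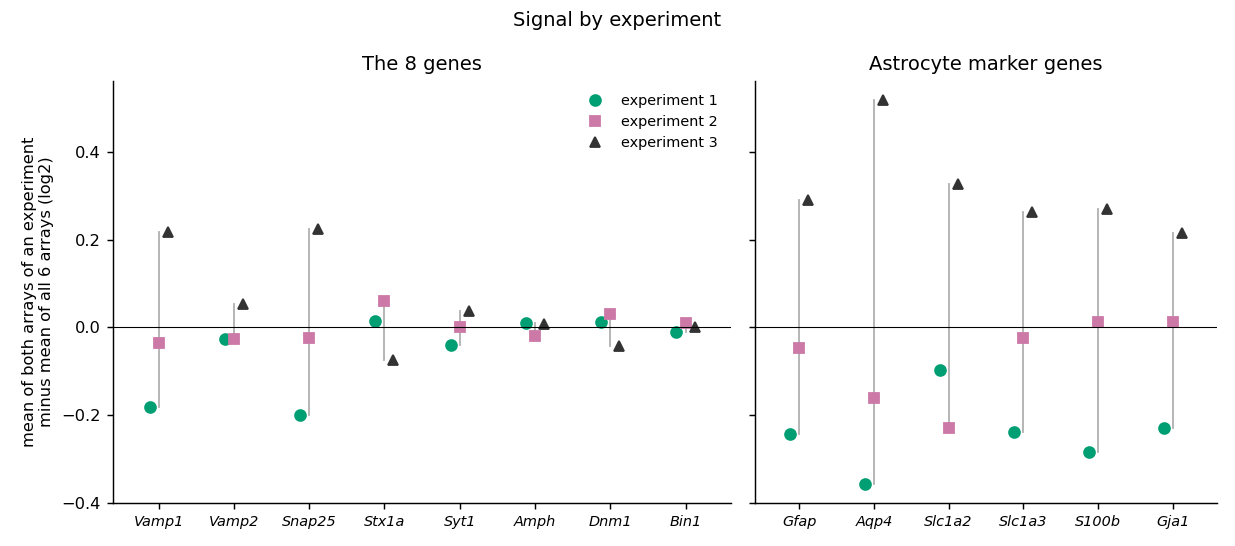
Mean of both arrays of each experiment minus the mean of all 6 arrays (quantile-normalized log2, vertical axis) for the 8 genes (left) and the 6 astrocyte markers (right), with a symbol and colour for each experiment. Vamp1 and Snap25 span 0.40 and 0.42 between experiments, the other 6 genes at most 0.14, and the astrocyte markers from 0.44 to 0.88.

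Other genes of the vesicle cycle moved in both directions. Of 153 genes in 5 lists 139 were measured, and 8 rose, 6 fell and 125 did not pass limma's test with Ncoa3 shRNA, where 10.5% of all genes rose and 9.04% fell. Their median difference was -0.01, against 0.01 for all genes. Of the 139 genes, 124 were brighter than the median gene, so the shares over all genes are not matched to them in brightness. When only genes brighter than the median gene were tested, 2 of these genes rose and 1 fell, where 220 and 214 of 9083 did. With the experiment as a block 14 rose and 17 fell, where 20.8% and 18.6% of all genes did. Before normalization 0 rose (0 at an unadjusted p under 0.05) and 45 fell, where 3.97% and 43.3% of all genes did. The counts hung on which experiments were included. Without experiment 1 or without experiment 2, 0 of these genes passed in either direction (at an unadjusted p under 0.05, 5 were higher and 4 lower without experiment 1, and 3 and 4 without experiment 2). Over all 18166 genes, 118 rose and 105 fell without experiment 1, and 0 passed in either direction without experiment 2. Without experiment 3, 13 of these genes rose and 20 fell, where 4436 and 3918 of all genes did.

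No other SNARE gene passed. Of 27 measured, 0 rose and 0 fell by limma's test (1 at an unadjusted p under 0.05), 1 rose with the block and 3 fell in the deposited values. The differences ran from -0.24 to 0.30 with a median of 0.01. The 5 other measured Vamp genes, mentioned for their shared name, did not pass. Vamp3 stood at 0.12 (adjusted p = 0.226), Vamp4 at -0.16 (0.172), Vamp5 at -0.19 (0.253), Vamp7 at -0.16 (0.421) and Vamp8 at 0.10 (0.290).

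Genes of docking and priming and regulators of SNAREs gave 4 rises and 2 falls among 42 measured, and 5 rises and 9 falls with the experiment as a block. Stxbp5l (tomosyn 2), named after its values were seen as the lowest difference of the list, stood at -0.55 and passed with the block (adjusted p = 0.0150) but not without it (0.210). Unc13c, a Munc13 protein that primes vesicles, fell by 0.54 on the log2 scale, to 6.14, 6.03 and 6.04 with Ncoa3 shRNA, against 6.69, 6.60 and 6.54 with control shRNA (SE 0.0627; adjusted p = 0.00353). These signals are low, below the median gene's 7.89. Stxbp2, a Munc18 protein known from granule release in blood cells, rose by 0.44 (adjusted p = 0.0151), Rims4, a member of the RIM family of the active zone, by 0.35 (0.0174) and Unc13d, the Munc13 protein of immune cell granules, by 0.27 (0.0416). Napa and Napg, adaptors through which NSF takes used SNARE complexes apart, went opposite ways, at -0.17 (0.0478) and 0.21 (0.0483). As deposited Unc13c differed by -0.83 and Napa by -0.33, while Stxbp2, Rims4 and Napg did not pass, and Unc13d passed in the opposite direction, at -0.02 (adjusted p = 0.0418).

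Among 42 measured genes of clathrin-mediated endocytosis, 3 rose and 3 fell. Blocking by experiment gave 6 rises and 5 falls in this list, where 20.8% of all genes were higher and 18.6% lower. The deposited values gave 15 falls and no rises in it, where 43.3% of all genes were lower. Synj1, the lipid phosphatase that strips the coat from new vesicles, fell by 0.39, to 11.32, 11.27 and 11.47 with Ncoa3 shRNA, against 11.72, 11.73 and 11.79 with control shRNA (SE 0.0643; adjusted p = 0.0105). Bin2, a relative of Amph and Bin1, differed by -0.37 (0.0081) at a low signal, from 4.94 to 5.07 with Ncoa3 shRNA and from 5.29 to 5.41 with control shRNA, and Sh3glb1, the membrane-bending endophilin B1, differed by -0.32 (0.0414). The coat genes Cltb, a clathrin light chain, Ap2a1, a subunit of the AP-2 adaptor, and Epn1, the adaptor epsin, rose by 0.30, 0.17 and 0.16 (0.0381, 0.0385 and 0.0482), and Cltb did not pass with the block (0.0529). None of these 3 rises passed in the deposited values, where Epn1 stood at -0.01. The dynamin paralogs of Dnm1, mentioned as paralogs, stood at 0.04 for Dnm2 (0.750) and at -0.26 for Dnm3 (0.0545, and 0.0384 with the block).

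Synaptotagmins and other vesicle proteins gave 1 call each without the block. Syt12, a synaptotagmin that does not bind calcium, rose by 0.27 (adjusted p = 0.0264) and stood at -0.01 in the deposited values. It was the only one of 15 measured synaptotagmins to pass without the block, and with the block 2 of the 15 rose and 2 fell. Sypl1, a relative of synaptophysin, fell by 0.36 (0.0456) and was the only one of 13 measured vesicle proteins to pass. Of the 14 vesicle-cycle genes that passed, 11 were brighter than the median gene. The deposited value was the same on at least 2 arrays of a group for 10 of them. For 6 of them, Bin2, Rims4, Unc13d, Napg, Syt12 and Epn1, it was the same on all 3 arrays of a group. The spread within such a group does not measure variation between cultures. In the deposited values 7 of the 14 passed, Unc13d in the opposite direction. None of the rises passed as a rise there, and 43.3% of all genes fell. Unc13c, Bin2 and Unc13d were dimmer than the median gene. The calls of Unc13c, Bin2 and Synj1 were lost without experiment 1 (adjusted p = 0.0898, 0.174 and 0.176) and without experiment 2 (0.125, 0.181 and 0.145), and that of Synj1 also without the Ncoa3 shRNA array of experiment 1 (0.0508). Of the 9 fits that left out an array or an experiment, 6 to 8 lost each of the other 11 calls.

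**Figure D5:**
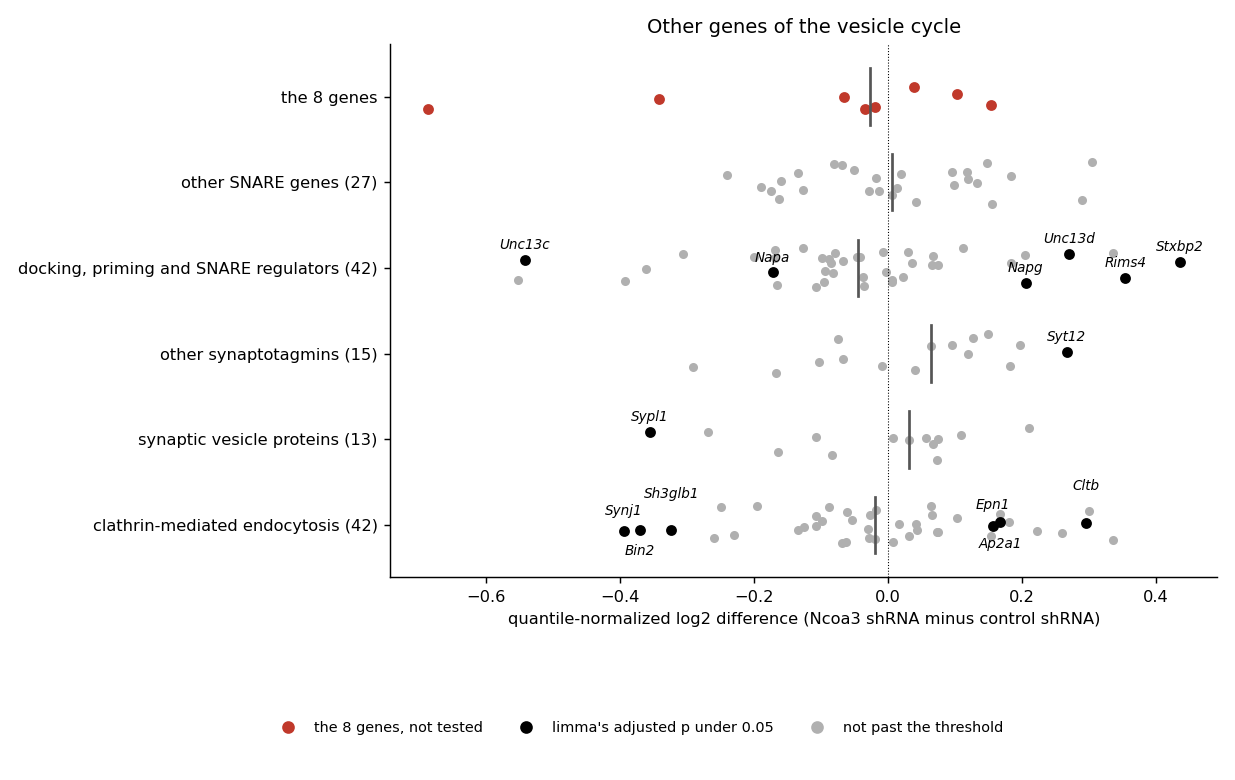
Quantile-normalized log2 difference (Ncoa3 shRNA minus control shRNA, horizontal axis) of the 8 genes (red, not tested) and of the 139 other vesicle-cycle genes in 5 lists, with genes past limma's adjusted p of 0.05 in black and named, the others in grey and a bar at each median. Named genes lie on both sides of 0, from Unc13c at -0.54 to Stxbp2 at 0.44, and no other SNARE gene is named.

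The genes whose pattern over the 6 arrays was most like that of Vamp1 were Clstn2, Cast and Secisbp2l. Likeness was the mean absolute difference between the gene-centred signals, taken over 9082 genes brighter than the median gene, and it was 0.07 for Clstn2, which encodes the synaptic membrane protein calsyntenin 2, 0.09 for Cast, the calpain inhibitor calpastatin, and 0.10 for Secisbp2l. The differences between the groups were -0.66, -0.79 and -0.82 for these 3 genes. For Amph the closest were Rab14, a GTPase of endosome traffic, at 0.0099, Fbxo3, an F-box protein, at 0.02 and Rybp, a Polycomb protein, at 0.02, with differences of -0.34, -0.31 and -0.31. The deposited value of Rab14, like that of Amph, was the same on all 3 Ncoa3 shRNA arrays. These genes were picked for their likeness, so their differences are a description. Vamp1 and Amph lay 0.20 apart by the same measure.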

How the data were processed

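The 6 arrays were grouped by the labels into 3 Ncoa3 shRNA and 3 control shRNA samples of numbered experiments, described as biological replicates. The authors deposited log2 signals for every probe set on each array. The submitters' processing notes name Affymetrix Expression Console; the sources used here do not give its version, summarisation or normalization. Of 36685 probe sets, 18511 had a single symbol in the platform's annotation, which can be old, and gave 18166 genes by the brightest probe set. All 6 arrays were quantile-normalized together, which removes any change common to most genes. limma 3.58.1 in R 4.3.3 (lmFit, eBayes with a trend, two-sided, Benjamini-Hochberg over all genes, threshold 0.05) tested group without a block, and experiment by an F-test with group in the model. Both fits were also run on simulated data. The simulated noise was independent between arrays and held no values repeated on several arrays. Those runs therefore do not bear on the pairing of the arrays or on the repeated deposited values. The number of arrays limits the precision, and p-values would leave out any error from summarising the groups apart, which the sources used here do not settle.

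The experiment numbers pair the arrays by the labels, and deviations from the group means correlated at r = 0.72, 0.55 and 0.78 over genes between the arrays of experiments 1, 2 and 3. Named were the 8 genes, Ncoa3, each other vesicle-cycle gene past the threshold (at most 16), and the 3 genes brighter than the median gene nearest in pattern to Vamp1 and to Amph. The members and lists were chosen with earlier results of these data known. Snap25 and Syt1 were left out of the neuronal marker list. A planned comparison of protein sequences was not made.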

Additional observations from a re-analysis of the deposited data

How the results depend on the processing

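Vamp1 and Amph stayed below 0 and Vamp2 above 0 under all scalings, whereas Snap25, Stx1a, Syt1, Dnm1 and Bin1 changed sign between scalings. After quantile normalization the groups did not overlap for Vamp1, Amph or Vamp2. Leaving out an array or an experiment therefore could not change the sign of these genes. In those 9 fits Vamp1 ran from -0.80 to -0.57, Amph from -0.35 to -0.33 and Vamp2 from 0.13 to 0.20. For the counts of genes higher and lower the values with the replicate block were 3777 and 3370 over all genes and 14 and 17 among the other vesicle-cycle genes, against 1905, 1643, 8 and 6 without it. Among the vesicle-cycle genes named, the block altered the calls of Cltb, Dnm3 and Stxbp5l and no other. With the deposited values the counts were 722 and 7857, and 0 and 45 (0 and 61 by limma at an unadjusted p under 0.05), and with each array centred on its median 1027 and 841, and 2 and 2. Testing only genes brighter than the median gene gave 220 and 214, and 2 and 1, from fewer genes tested. Leaving out an array or an experiment gave 0 to 4436 higher and 0 to 3918 lower over all genes, and 0 to 13 and 0 to 20 among the vesicle-cycle genes, with 0 over all genes without experiment 2 (1593 higher and 1478 lower at an unadjusted p under 0.05). For the effect of experiment, 3411 genes and 1 of the 8 passed, against 347 and 0 with the deposited values (4700 and 3 at an unadjusted p under 0.05), 10074 and 4 with array medians centred, 2066 and 1 for the brighter genes only, and 0 to 1368 and 0 with an array or an experiment left out (0 to 2 of the 8 at an unadjusted p under 0.05). In the deposited values Syt12 (-0.012), Unc13d (-0.017) and Epn1 (-0.014) turned from above to below 0, where the median of all genes was also below 0. The cause of the other shifts was not tested. Signal over background was not given, so what is dim cannot be told from what is absent.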
